A study of Mus musculus with 99 samples.

Results

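Polycomb repressive complex 2 (PRC2) and its accessory subunit gene Phf1 were followed in bulk RNA sequencing of 5 brain areas of juvenile mice. The genes described are Ezh1, Ezh2, Suz12, Eed, Rbbp4, Rbbp7, Phf1, Mtf2, Phf19 and Jarid2. All 10 were found, through their GENCODE symbols, among the 55335 Ensembl identifiers counted in every library, and all 10 passed the filter on low counts in each area. Phf1 was selected on its change in these same data, since an earlier analysis had called it higher after fentanyl in the primary somatosensory cortex of females, and the other genes were added as its complex. Its values in that comparison, and in the average over sexes that shares those libraries, are therefore a description. So are its comparisons of other areas with S1, which share the female water libraries. All of these are used as support for nothing.

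The mice were wildtype offspring of C57BL/6 dams. In the fentanyl groups the dam drank water holding fentanyl, a synthetic opioid agonist, at 10 µg/ml from embryonic day 0 until weaning, and in the water groups the dam drank plain water. RNA was taken from each sex in VTA (ventral tegmental area), NAc (nucleus accumbens), PrL (prelimbic cortex), S1 (primary somatosensory cortex) and VBT (ventrobasal thalamus), which belong to reward and sensory circuits. With the 2 treatments this gave 20 groups. The labels name no litter, dam or pooling, and pups of a litter share their exposure, so the p-values measure the spread between these libraries, which may be partly technical. In bulk tissue, fewer cells of a type and less RNA per cell cannot be told apart.

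PRC2 places methyl groups on H3K27, a histone mark that keeps developmental genes silent. Its catalytic subunit is EZH1 or EZH2, SUZ12 is the scaffold, EED binds the finished mark and stimulates the enzyme, and RBBP4 or RBBP7 contacts histones. PHF1, MTF2 and PHF19 are alternative Polycomb-like subunits that help the complex bind CpG-rich DNA, and JARID2 defines another form of the complex. In the brain, EZH2 is known from dividing progenitors and EZH1 from neurons that have left the cell cycle.

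Of 99 libraries, 98 were used, with 18 groups of 5 and 2 groups of 4, namely males exposed to water in S1 and in VTA. The library labelled VTA male water 3 was left out because it had counts for only 6333 genes, under the minimum of 10000, whereas the others had counts for 24079 to 27347. In that library 7 of the 10 PRC2 genes had no count, so every VTA comparison that involves males exposed to water is given without it, and with it where stated. Totals over genes in the 98 libraries ranged from 23032078 to 52069639 counts, with a median of 36024982. The median count per library was 1248 for Phf1, 2320 for Mtf2, 2430 for Ezh1, 354 for Ezh2, 1845 for Suz12, 654 for Eed, 1922 for Jarid2, 4821 for Rbbp4 and 3916 for Rbbp7, but only 35 for Phf19, whose values carry the largest counting error. The labelled areas were checked against marker sets. The summed level of 6 VTA markers averaged 1045 CPM (counts scaled to the library's total over genes) over all VTA libraries kept, and all 6 had a count in each of them, although the sum ran from 335 to 1733. All 5 thalamic markers in VBT, all 5 cortical markers in S1 and PrL, and all 6 striatal markers in NAc had a count in every library of that area. A count alone does not tell areas apart, since the thalamic markers also had counts in VTA libraries of males. PrL female water 5 and PrL male water 3 stood apart, with 4 olfactory bulb markers that summed to 171 and 324 CPM. The highest sum among the other PrL libraries was 31.0 CPM, in male water 4, and the rest lay at or under 8.63 CPM.

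The promoters of Phf1 and Mtf2 are shown because these paralogs were ordered differently over the brain areas and because the Polycomb-like proteins themselves bind CpG-rich DNA. The sequences are those of RefSeq on GRCm38.p6, in which all 10 genes were matched, from 250 bases before the start of the gene up to its first annotated exon. Capitals mark the GC box GGGCGG, or its reverse complement.
Phf1: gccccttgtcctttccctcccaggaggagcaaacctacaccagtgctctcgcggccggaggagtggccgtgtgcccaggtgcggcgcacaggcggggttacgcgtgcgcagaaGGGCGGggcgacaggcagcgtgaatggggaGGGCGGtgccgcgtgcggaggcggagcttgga
Mtf2: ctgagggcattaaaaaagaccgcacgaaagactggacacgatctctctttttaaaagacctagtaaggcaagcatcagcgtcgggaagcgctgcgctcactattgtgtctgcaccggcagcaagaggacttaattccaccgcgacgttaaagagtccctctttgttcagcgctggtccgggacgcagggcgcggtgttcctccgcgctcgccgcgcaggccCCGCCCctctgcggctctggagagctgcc
The Phf1 stretch lies at chr17:26932877-26933051 on the plus strand and spans 175 bases. It holds 18 CpG dinucleotides, more than 91.5% of the 32851 promoters when those are read over the same window, and its GC content is 70.9% against a median of 51.4%. The Mtf2 stretch lies at chr5:108065424-108065673 on the plus strand, spans 250 bases, holds 23 CpG dinucleotides, more than 86.7% of promoters, and has a GC content of 59.2% against a median of 52.4%. The GC box was found 2 times for Phf1, where 20.2% of promoters hold it, and 1 time for Mtf2, where 32.7% do. Neither window holds a CCAAT box on either strand, which 24.1% and 33.9% of promoters hold over the same lengths. The same is true of the TATA box TATAAA (8.22% and 12.4%) and of the E-box CACGTG (3.54% and 6.02%). Both promoters are thus rich in CpG, while the transcribed exons of the genes differ. The exons of Phf1 have a GC content of 58.6%, above that of 92.7% of the genes measured in VTA, and those of Mtf2 have 38.2%, above that of only 3.84%.

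In the genome (GRCm38), Phf1 spans chr17:26933052-26937908 on the plus strand with 3486 exonic bases. Of these bases, 39.3% are also exonic in Cuta, a gene on the opposite strand that averaged 21.1 CPM. The library kit keeps no strand, so the gene of origin of reads from that stretch cannot be told. How the deposited counts assigned them is not known, since the strand setting is not given. Mtf2 spans chr5:108065674-108109004 and shares 6.93% of its exonic bases with Tmed5 on the opposite strand. Ezh1 lies at chr11:101191115-101226463, Ezh2 at chr6:47530139-47595341, Suz12 at chr11:79993106-80034123, Eed at chr7:89954654-89980983 and Jarid2 at chr13:44729474-44921643. Rbbp4 lies at chr4:129307100-129335370, Phf19 at chr2:34893757-34914026 and Rbbp7, the X-linked member, at chrX:162760402-162779092. The exonic overlap with opposite-strand genes was 8.94% for Rbbp4 (Sync), 6.82% for Eed (E230029C05Rik) and 5.98% for Rbbp7 (Txlng).

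The first question was how the genes are expressed across the 5 areas without the drug. The water libraries were compared between areas with edgeR's quasi-likelihood test, with sex as a covariate and Benjamini-Hochberg adjustment over 20216 genes, and an adjusted p under 0.05 is called. Levels are given as CPM within a gene and as CPM per kilobase of exon between genes. There were 9 water libraries each in VTA and S1 and 10 in each other area.

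The 2 catalytic genes differed in level and in pattern. Ezh1 was the more abundant in every area, with means between 7.56 and 10.3 CPM per kilobase, whereas Ezh2 had means between 1.05 and 2.55. Ezh2 was highest in NAc at 17.0 ± 2.0 CPM (SD, n = 10), with a lowest library of 15.1, a median of 16.2 and a highest of 20.5. The means were 10.4 ± 3.2 in VBT and 10.1 ± 1.2 in VTA, then 8.51 ± 1.21 in S1 and 7.04 ± 2.63 in PrL. No VTA, S1 or PrL library reached the lowest NAc library, and 2 VBT libraries did, female water 2 at 15.8 CPM and male water 3 at 16.1. Ezh2 was called higher in NAc than in each other area, by a log2 fold change of 1.19 over PrL (SE 0.13, adjusted p = 1.3e-10) at the most and 0.58 over VBT (SE 0.13, adjusted p = 9.4e-05) at the least. Among the others, VTA and S1, VTA and VBT, and S1 and PrL were not called apart. The PrL mean includes female water 5 at 11.6 CPM and male water 3 at 12.2, the libraries with high olfactory bulb markers. The PrL median was 5.90 CPM.

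Markers of dividing cells were also highest in NAc. The 5 markers, among them Mki67 and Top2a, summed to a median of 26.3 CPM in NAc libraries of both treatments (7.62 to 47.4), against medians of 2.76 in PrL, 3.70 in S1, 4.28 in VBT and 4.92 in VTA, and their part in the Ezh2 level was not tested. All 5 had a count in every NAc library. VBT female water 2, with the high Ezh2 level, also had the highest sum of these markers in VBT, 23.5 CPM, and a sum of 4540 CPM over 5 choroid plexus markers, whose median in VBT was 13.6. Ezh1 showed a narrower range, from 56.3 ± 3.8 CPM in VBT to 76.3 ± 2.7 in VTA. Its pairs VTA and PrL, S1 and PrL, and VBT and NAc were not called. Ezh2 made up 22.7% ± 1.7 of the Ezh1 and Ezh2 transcripts per length in NAc, 16.9% ± 3.7 in VBT, 12.9% ± 1.5 in VTA, 12.3% ± 1.5 in S1 and 10.2% ± 3.5 in PrL. The PrL share includes the libraries with high olfactory bulb markers, and its median was 8.47%.

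Of the core genes, Suz12 and Eed had the narrowest ranges of the 10. Suz12 averaged from 45.7 CPM in PrL to 57.7 in NAc, a 1.26-fold range, and Eed from 15.5 in PrL to 19.4 in NAc, a 1.25-fold range. Eed, which senses the mark, was called in only 5 of the 10 pairs of areas, and Suz12 in 6. Rbbp4 averaged from 115.5 CPM in VBT to 150 in VTA and was called in 8 pairs. Rbbp7, its close paralog, had another order, from 83.7 CPM in VTA to 122.3 in PrL, and was called in 9 pairs. Both chaperones also belong to complexes outside PRC2. Per kilobase, Rbbp7 was the most abundant of the 10 genes in every area, with means between 28.8 and 42.0, and Rbbp4 had means between 13.2 and 17.2.

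Jarid2 averaged from 45.9 CPM in S1 to 59.5 in NAc and was called in 9 pairs, all but VTA and PrL. Between VBT and NAc its direction depended on the scaling. The means of 58.7 and 59.5 CPM put NAc above VBT, while the test, which scales by TMM, called VBT above NAc by 0.12 on the log2 scale (adjusted p = 0.022).

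Among the Polycomb-like genes, Phf1 ranged 2.49-fold between area means, Mtf2 2.004-fold and Phf19 1.84-fold, next to 2.42-fold for Ezh2. Whether Phf1 or Ezh2 ranged more is not settled. The S1 mean of Phf1 includes the female water libraries used in its choice. The PrL mean of Ezh2 includes the libraries with high olfactory bulb markers. Phf1 was highest in VTA at 61.5 ± 9.0 CPM (lowest 44.1, median 64.5, highest 71.8, n = 9). It followed in NAc at 36.2 ± 6.3 (26.6, 36.3 and 47.5), VBT at 33.3 ± 3.1 (27.9, 33.7 and 37.5), PrL at 28.0 ± 1.6 (25.1, 28.6 and 30.0) and S1 at 24.7 ± 2.2 (22.6, 23.9 and 29.7). The lowest VTA library lay under the highest NAc library and above every library of the other 3 areas. On the log2 scale Phf1 was higher in VTA by 1.23 over S1 (SE 0.08, adjusted p = 1.6e-19), 1.04 over PrL, 0.76 over NAc and 0.74 over VBT, all called. VBT and NAc did not differ beyond their spread (0.02, adjusted p = 0.78), and the other 9 pairs were called. The pairs with S1 use the female water libraries from which Phf1 was chosen and are a description.

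Mtf2 had another order. It was highest in NAc at 88.6 ± 10.5 CPM (lowest 73.0, median 90.6, highest 109.7) and S1 at 88.4 ± 7.7 (73.8, 87.5 and 99.99), a pair that was not called. It was 70.9 ± 6.6 in PrL, 50.8 ± 7.5 in VTA and 44.2 ± 2.9 in VBT, and the last pair was not called either. No VTA or VBT library reached the lowest PrL library of 63.9 CPM. Between VTA and S1 the log2 difference of Mtf2 was -0.89 (SE 0.06, adjusted p = 5.5e-17), opposite to that of Phf1. The comparisons between areas were not adjusted for exon GC content, in which Phf1 and Mtf2 differ widely. Its part in their levels and shares over the areas was not tested. Phf19 stayed between 0.774 and 1.43 CPM in all areas.

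As a share of the 3 Polycomb-like transcripts per length, Phf1 made up 65.6% ± 5.7 in VTA and 54.5% ± 2.6 in VBT. It was 39.5% ± 2.6 in NAc, 39.0% ± 2.4 in PrL and 31.2% ± 3.6 in S1. Per full exon length, Phf1 was above Mtf2 in every VTA and VBT water library and below it in every water library of the other areas. The ranges of VTA (55.3% to 72.0%) and VBT (49.5% to 58.2%) overlap, and both lie above every library of the other 3 areas, whose highest was 45.3%. The order in NAc and PrL depended on the length used. When the exonic bases shared with Cuta and Tmed5 were left out of the lengths, a choice made after seeing the data, the share of Phf1 was 74.4% in VTA, 64.8% in VBT, 49.997% in NAc, 49.5% in PrL and 41.0% in S1. Phf1 then lay above Mtf2 in 5 of 10 NAc libraries, 6 of 10 PrL libraries and 1 of 9 S1 libraries. Oligodendrocyte markers were also higher in VTA and VBT than in the other areas: their 6 genes, all with a count in each library, had a median sum of 19632 CPM in VTA, 23106 in VBT, 7425 in NAc, 3626 in S1 and 1088 in PrL. Within these 2 sets of areas the order of the sums was not that of the shares, and the part of these cells in the shares was not tested.

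The called pairs per gene stand against a wide background, since the areas differ in most genes. Of the 10 PRC2 genes, 7 were called between VTA and VBT, where 54.4% of all genes were, and 7 between VTA and S1 (69.2%). The count was 6 between VTA and PrL (68.2%), 9 between VTA and NAc (66.2%), 8 between VBT and S1 (69.8%), 8 between VBT and PrL (70.1%) and 6 between VBT and NAc (69.8%). It was 6 between S1 and PrL (39.5%), 6 between S1 and NAc (55.1%) and 10 between PrL and NAc (52.1%). A call between areas is thus common among genes in general, and the counts are no result about PRC2.

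**Figure D1:**
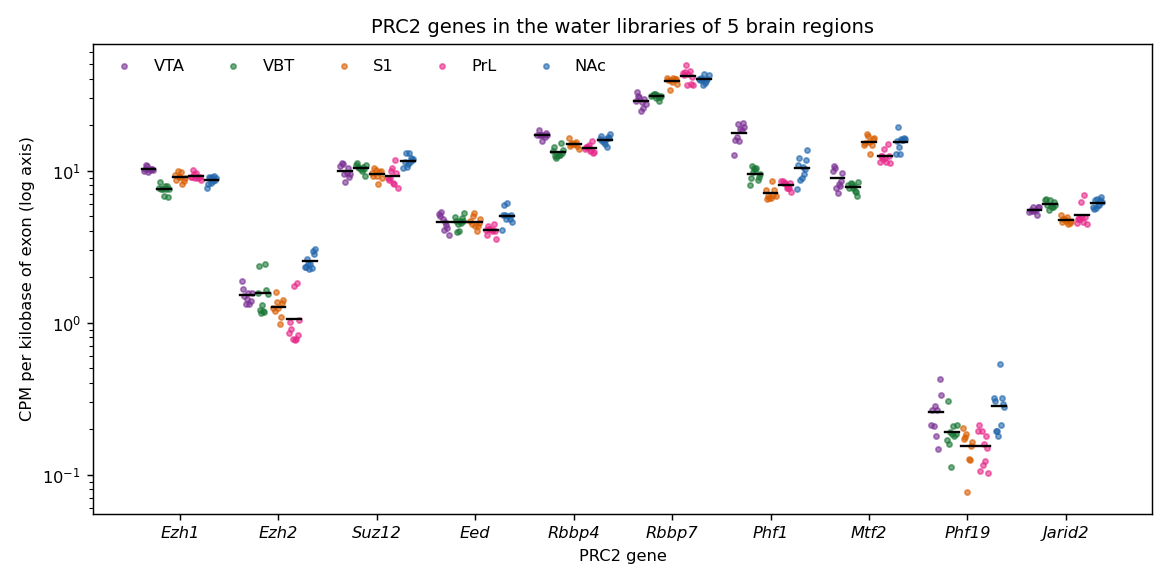
Level of the 10 PRC2 genes in each water library, in CPM per kilobase of exon on a log axis, by brain area; points are libraries and black lines are means. Phf1 is highest in VTA with a mean of 17.6, Mtf2 in NAc and S1 with means of 15.6 and 15.5, and Ezh2 in NAc with a mean of 2.55.

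**Figure D2:**
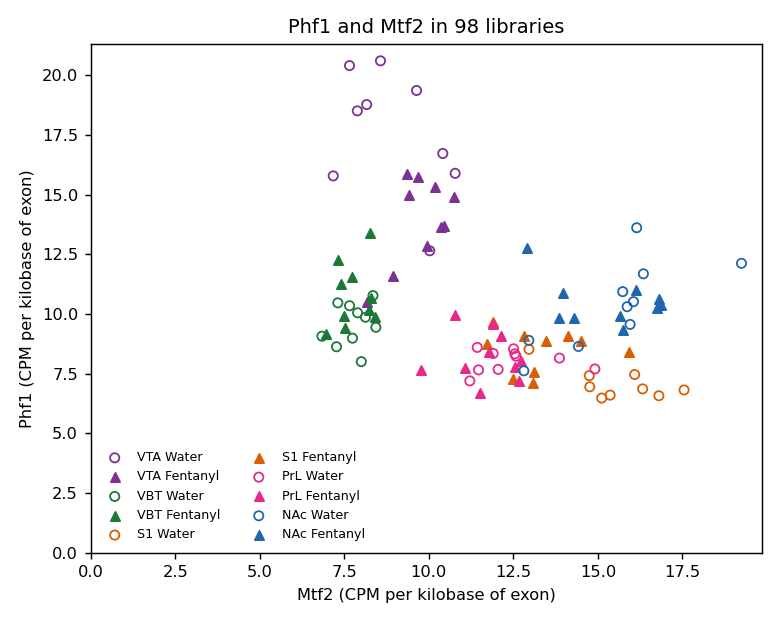
Phf1 against Mtf2 in the 98 libraries, both in CPM per kilobase of exon; colours are brain areas, open circles water and filled triangles fentanyl. VTA libraries sit at high Phf1 and low Mtf2 and S1 libraries at low Phf1 and high Mtf2, with shares of Phf1 in the family of 65.6% and 31.2% in water. The values are not adjusted for exon GC content.

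The next question was whether perinatal fentanyl changed these genes. Within each area, fentanyl was compared with water in females, in males and as the average of both sexes, by edgeR's quasi-likelihood test with adjustment over all genes tested there, and the same holds for every adjusted p below.

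In VTA of males, Phf1 was lower and Eed and Rbbp7 were higher after fentanyl. Phf1 was 65.4, 64.5, 71.8 and 67.5 CPM in the 4 males exposed to water and 36.7, 52.3, 44.8, 40.4 and 47.8 CPM in the 5 exposed to fentanyl. The groups do not overlap, and the highest fentanyl library lies below the lowest water library. The log2 fold change was -0.57 (SE 0.09, 95% interval -0.75 to -0.38, adjusted p = 0.0022), or 0.675 of the water level. It stayed between -0.62 and -0.51 and was called in all 19 fits that each left out 1 VTA library.

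Eed, the subunit that reads the mark, was 17.5, 16.7, 15.96 and 14.5 CPM in VTA of males exposed to water and 20.5, 18.8, 21.98, 16.5 and 18.0 CPM after fentanyl. The groups overlap by a single fentanyl library, replicate 4. Its log2 fold change was 0.28 (SE 0.09, adjusted p = 0.033). Rbbp7, the histone-binding subunit, was 82.4, 75.2, 86.3 and 79.4 CPM in water and 93.1, 92.6, 86.6, 88.4 and 98.4 CPM in fentanyl libraries, which do not overlap. Its log2 fold change was 0.22 (SE 0.06, adjusted p = 0.017). The call of Eed was lost without male fentanyl 1 or 3 or male water 4 or 5, with an adjusted p of up to 0.12, and that of Rbbp7 without male water 2 or 5, with an adjusted p of up to 0.056.

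These 3 calls among 10 genes compare with 22% of all 19822 genes called in VTA of males, and the 2 genes with separate groups compare with 22.4% of all genes. The share among PRC2 genes is thus near the background. The median log2 fold change over the 10 genes was 0.10, and that over all genes was 0.00. The other 7 genes were not called: Suz12 had a log2 fold change of 0.20 (adjusted p = 0.11), Mtf2 0.17 (0.24), Ezh2 0.13 (0.43), Ezh1 0.06 (0.41), Rbbp4 0.06 (0.40), Jarid2 -0.07 (0.48) and Phf19 -0.58 (SE 0.29, 0.17).

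A property of the libraries moved with Phf1 in VTA. For each library, Spearman's rho across genes was taken between the gene's level relative to the area mean and the GC content of its exons. This GC trend was 0.58 ± 0.06 in VTA of males exposed to water (0.51 to 0.65) and -0.34 ± 0.18 after fentanyl (-0.49 to -0.11), so the groups do not overlap in it. Genes with GC-rich exons, Phf1 among them, were as a class lower in the fentanyl libraries by this measure. When a trend on GC content was fitted in each library and removed by offsets, the log2 fold change of Phf1 was -0.24 with an adjusted p of 0.038, Rbbp7 had 0.08 with 0.47 and Eed 0.22 with 0.14. With these offsets 1 of the 10 genes was called, against 4.21% of all genes. Leaving out each VTA library in turn under the offsets, a combination chosen after seeing the data, gave values of Phf1 from -0.27 to -0.21, called in 11 of 19 fits, with adjusted p between 0.024 and 0.10. The call was lost without male fentanyl 1, 3 or 4, male water 1, 2, 4 or 5, or female fentanyl 2. Mtf2, whose exons are GC-poor, had 0.17 without the offsets and -0.12 with them, called in neither.

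Other measures of the VTA libraries overlapped between the male groups. The 6 VTA markers summed to 335 to 1240 CPM after fentanyl and 864 to 1499 in water, the 5 thalamic markers to 240 to 715 and 237 to 500, and the 6 oligodendrocyte markers to 14999 to 25307 and 19259 to 23761. All of these markers had a count in every one of the libraries. Their part in the Phf1 difference was not tested. Cuta, which shares exons with Phf1, had a log2 fold change of -0.27 (adjusted p = 0.033) in VTA of males.

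With the library VTA male water 3 kept in the fit, the log2 fold change of Phf1 in VTA of males was -0.25 with an adjusted p of 0.9996, Eed had 0.60 (0.9996) and Rbbp7 0.47 (0.65). No PRC2 gene was called, and the median over all genes was 0.20 in place of 0.00, a shift that these values include. The share of all genes called was then 0.216%.

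In VTA of females no PRC2 gene was called. Phf1 was 44.1, 55.4, 58.3, 71.1 and 55.0 CPM in water and 47.6, 53.4, 51.9, 55.3 and 54.8 CPM after fentanyl. The fentanyl values lie within the range of the water values, and the water libraries themselves spread widely. The log2 fold change was -0.12 (SE 0.09, adjusted p = 0.56). None of the 10 genes was called in females by edgeR or by DESeq2, and none had an unadjusted p under 0.05. Of all genes, 0% were called by edgeR, with 2518 at an unadjusted p under 0.05.

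The edgeR test of the difference between the sexes gave -0.44 for Phf1 in VTA (SE 0.13, adjusted p = 0.42), so a sex difference in its response was not shown. Averaged over the sexes, Phf1 had a log2 fold change of -0.35 (SE 0.06, adjusted p = 0.0016) and Rbbp7 0.17 (SE 0.04, adjusted p = 0.0086). These were 2 of the 10 genes, where 23.1% of all genes were called. With GC offsets the averages were -0.11 for Phf1 (adjusted p = 0.15) and 0.07 for Rbbp7 (adjusted p = 0.33). Suz12, not called, had 0.16 (adjusted p = 0.052) without the offsets and 0.01 (0.95) with them.

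**Figure D3:**
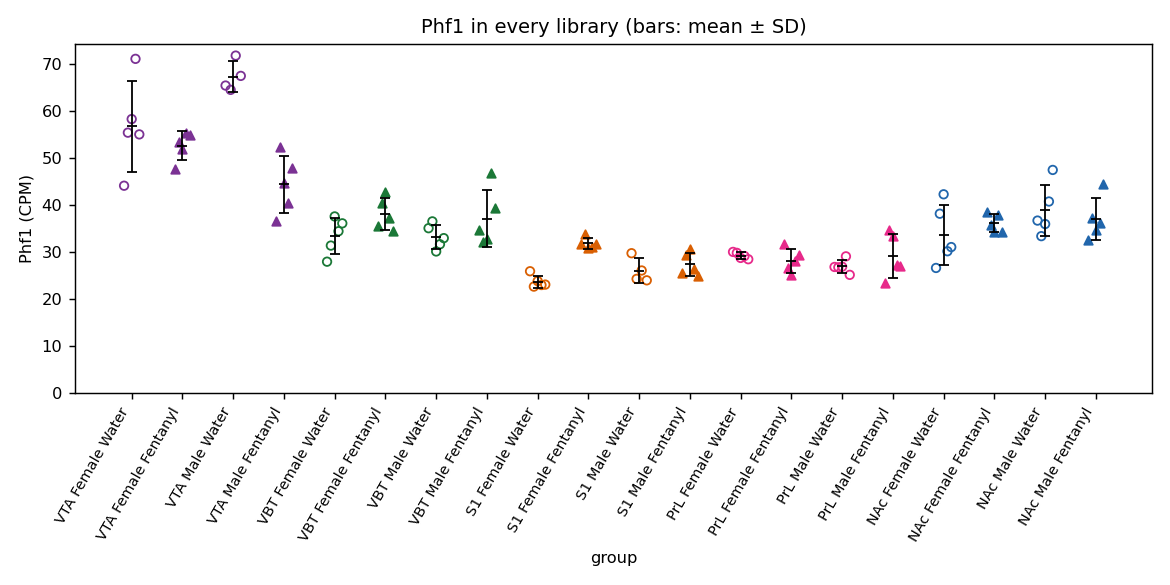
Phf1 in CPM in each of the 98 libraries, by brain area, sex and treatment (open circles water, filled triangles fentanyl), with the mean and SD of each group. In VTA of males the 4 water libraries lie between 64.5 and 71.8 and the 5 fentanyl libraries between 36.7 and 52.3.

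**Figure D4:**
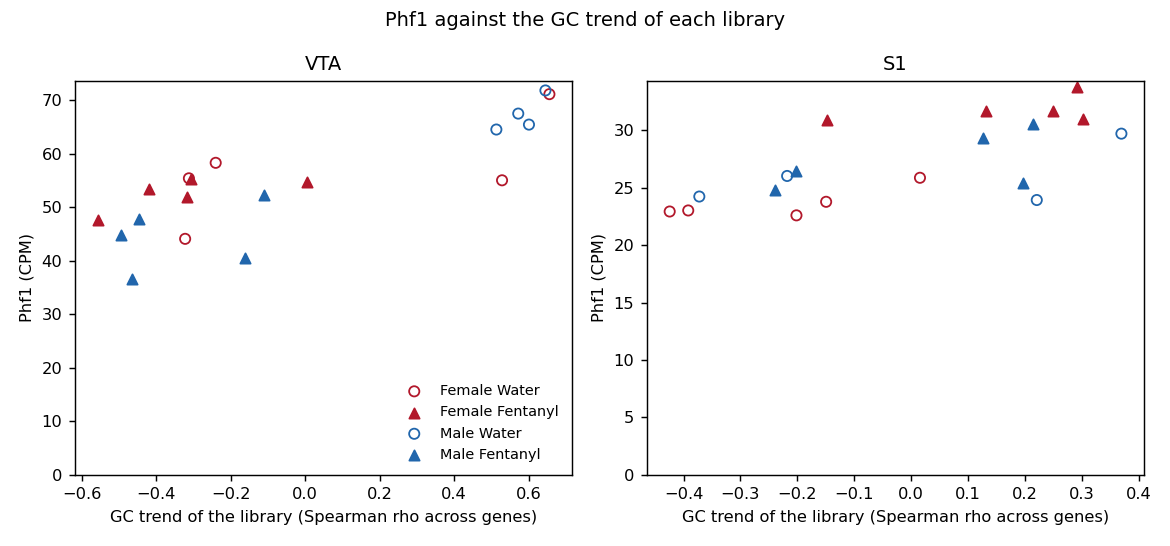
Phf1 in CPM against the GC trend of each library, which is Spearman's rho across genes between relative level and exon GC content, in VTA (left) and S1 (right); red is female, blue male, open circles water and filled triangles fentanyl. In VTA of males the GC trend is 0.51 to 0.65 in water and -0.49 to -0.11 after fentanyl.

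In S1 of females, the comparison from which Phf1 was chosen, it was 25.9, 22.6, 23.8, 22.9 and 23.0 CPM in water and 31.7, 33.7, 30.9, 31.0 and 31.7 CPM after fentanyl. The groups do not overlap. The fitted log2 fold change was 0.42 (SE 0.07), and the GC trend of the libraries was -0.23 in water (-0.42 to 0.02) and 0.17 after fentanyl (-0.15 to 0.30). With GC offsets the value was 0.31. It then missed the threshold, as it did with length offsets (0.40), with the percentage of reads outside exons as a covariate (0.40) and in 11 of the 19 fits that left out 1 S1 library: each of the 5 female water libraries, female fentanyl 1, 2, 4 or 5, and male water 4 or 5. Phf1 was the only one of the 10 genes past the threshold there, where 0.142% of all genes were called, and this count follows from the choice of the gene.

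In S1 of males, libraries that the choice did not use, Phf1 was 29.7, 24.2, 26.03 and 23.9 CPM in water and 25.4, 29.3, 30.5, 26.4 and 24.8 CPM after fentanyl. The groups overlap almost fully, and the log2 fold change of 0.10 (SE 0.07, 95% interval -0.05 to 0.24, adjusted p = 0.82) was not called. No PRC2 gene was called in S1 of males by edgeR or DESeq2, and none had an unadjusted p under 0.05. Of all genes, 0% were called there by edgeR, with 1412 at an unadjusted p under 0.05.

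Mtf2, the paralog of Phf1, had lower means after fentanyl in S1, and the test by edgeR was not passed. In females it was 84.0, 86.1, 99.99, 95.7 and 87.5 CPM in water and 73.1, 67.9, 82.6, 76.7 and 80.4 CPM after fentanyl. These groups do not overlap, as in 4.22% of all genes, yet the log2 fold change of -0.26 (SE 0.08) had an adjusted p of 0.13 by edgeR and 0.046 by DESeq2. With GC offsets the change was -0.15. In males Mtf2 was 73.8, 84.1, 91.7 and 93.0 CPM in water and 71.1, 90.8, 66.8, 74.7 and 74.5 CPM after fentanyl, with a log2 fold change of -0.16 (adjusted p = 0.71). Averaged over sexes its change was -0.21 (SE 0.06), with an adjusted p of 0.062 by edgeR and 0.018 by DESeq2. By DESeq2 2.37% of all genes were called in S1 of females and 3.7% on average. In the average comparison of S1, edgeR called 1 of the 10 genes, Phf1, and 1.03% of all genes.

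The share of Phf1 in the Polycomb-like family followed these levels. In VTA of males it was 68.6% ± 1.75 in water (n = 4) and 57.0% ± 2.3 after fentanyl (n = 5), an exact permutation p of 0.016, which is the smallest that 5 against 4 libraries allow, and 0.14 adjusted over the 9 comparisons other than S1 of females. In S1 of females, as a description, it was 29.7% ± 2.2 in water and 40.4% ± 2.7 after fentanyl. None of the 9 comparisons passed after adjustment, where a difference in 1 group alone could reach no less than 0.14 with 5 against 4 libraries and 0.071 with 5 against 5. In the VBT, PrL and NAc groups the difference was between -0.19 and 3.35 percentage points. It was -3.67 in VTA of females and 3.91 in S1 of males.

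In PrL, Ezh2 did not pass the test in either sex. It was 5.12, 5.22, 12.2, 5.54 and 6.96 CPM in males exposed to water and 5.04, 4.98, 5.00, 4.92 and 4.40 CPM after fentanyl. In females it was 5.75, 6.73, 6.05, 5.25 and 11.6 CPM in water and 6.12, 4.66, 5.69, 5.18 and 6.10 CPM after fentanyl. The high values are those of male water 3 and female water 5, the libraries with high olfactory bulb markers. The log2 fold change was -0.41 on average (SE 0.15, adjusted p = 0.15), and without these 2 libraries, a fit chosen after seeing the data, it was -0.15 (adjusted p = 0.41). The male groups do not overlap for Ezh2, as in 2% of all genes. As a share of Ezh1 and Ezh2 per length, Ezh2 in PrL of males was 10.2% ± 3.9 in water and 6.84% ± 0.47 after fentanyl (exact permutation p = 0.0079, the smallest that 5 against 5 libraries allow, adjusted p = 0.079, the smallest that 1 comparison alone can reach among 10). None of the 10 comparisons of this share passed.

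Ezh1, the other catalytic gene, missed the threshold in PrL by edgeR. Its average log2 fold change was 0.13 (SE 0.04), with an adjusted p of 0.086 by edgeR, 0.023 by DESeq2 and 0.049 with GC offsets. The reads outside exons, a sign of unspliced or genomic material, moved with treatment there, at 10.97% and 11.8% after fentanyl and 13.3% and 13.7% in water in females and males. With that percentage as a covariate the adjusted p of Ezh1 was 0.71, and without the 2 libraries above Ezh1 had 0.10 (adjusted p = 0.20). No PRC2 gene was called in PrL by edgeR. Of all genes, 0.021% were called in females, 0% in males and 0.697% on average. At an unadjusted p under 0.05 were 0, 2 and 3 of the PRC2 genes, and 1817, 2284 and 3638 of all 19074 genes. DESeq2 called 0, 0 and 1 of the 10, the last being Ezh1, where it called 4.16% of all genes and edgeR with GC offsets 2.04%.

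In VBT and NAc none of the 10 genes was called by edgeR or DESeq2 in females, males or on average. In VBT, 2, 1 and 5 of the genes had an unadjusted p under 0.05, and 0% of all genes were called in each of the 3 comparisons, with 1487, 1646 and 1606 genes at an unadjusted p under 0.05. The 5 on average were Phf1 with a log2 fold change of 0.15, Ezh1 0.07, Suz12 -0.07, Rbbp7 -0.08 and Eed -0.11, with adjusted p between 0.51 and 0.58. Rbbp7 in VBT of females was the only gene of the 10 there with separate groups, as in 2.06% of all genes, at -0.12 (adjusted p = 0.48).

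In VBT, Phf1 was 27.9, 31.3, 37.5, 34.4 and 36.1 CPM in females exposed to water and 35.5, 40.3, 42.8, 37.2 and 34.4 CPM after fentanyl. Both groups overlap. In males it was 35.0, 36.5, 30.1, 31.6 and 32.9 CPM in water and 34.6, 32.01, 32.8, 46.7 and 39.2 CPM after fentanyl, with 2 water libraries below every fentanyl library and the other 3 within their range.

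In NAc, 0, 1 and 0 of the genes had an unadjusted p under 0.05 in females, males and on average. The 1 was Rbbp7 in males at 0.18 (SE 0.06, adjusted p = 0.14). Of all genes, 0%, 0.662% and 0% were called, with 1760, 3437 and 2343 at an unadjusted p under 0.05. Phf1 in NAc had log2 fold changes of 0.10 in females and -0.04 in males (SE 0.10 each). Its NAc libraries ranged from 26.6 to 42.3 CPM in females and from 32.5 to 47.5 CPM in males, with the treatments overlapping. In PrL the changes of Phf1 were -0.02 and 0.13 (SE 0.08 each), on values from 23.4 to 34.6 CPM.

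**Figure D5:**
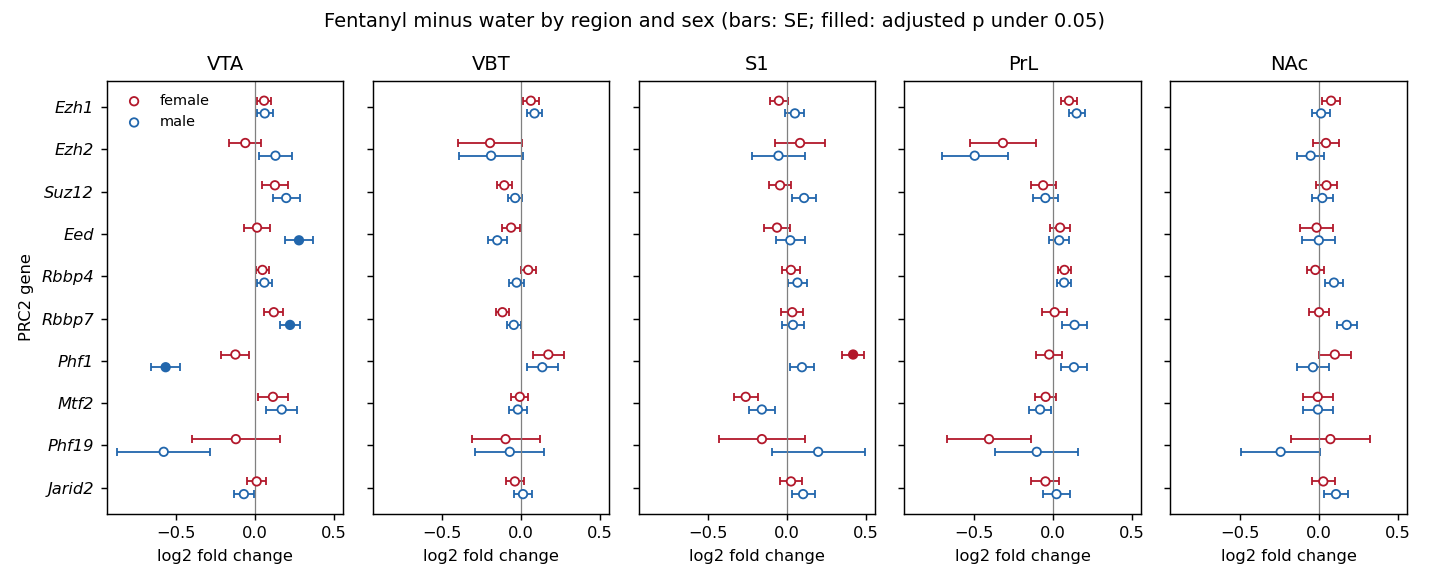
Log2 fold change of fentanyl minus water for the 10 PRC2 genes in each brain area, in females (red) and males (blue), with SE bars; filled points have an adjusted p under 0.05. The filled points are Phf1, Eed and Rbbp7 in VTA of males and Phf1 in S1 of females, the comparison from which Phf1 was chosen.

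Whether the male response in VTA differed from that in the other areas was tested in a joint fit of all 20 groups over 22326 genes, which was added after seeing the data. The male response of Phf1 in VTA minus that in another area was -0.69 for VBT (adjusted p = 3.3e-04), -0.66 for S1 (0.0011), -0.70 for PrL (6.5e-04) and -0.53 for NAc (0.0044). Eed and Rbbp7 differed between VTA and VBT by 0.44 (0.0061) and 0.28 (0.043). These were 3, 1, 1 and 1 of the 10 genes against VBT, S1, PrL and NAc, where 13.3%, 7.58%, 10.1% and 11.8% of all genes were called. With GC offsets in the same fit, Phf1 had -0.33 (0.098), -0.33 (0.16), -0.37 (0.080) and -0.23 (0.25), Eed 0.37 (0.056) and Rbbp7 0.12 (0.63). None of the 10 was then called in any of the 4 comparisons, where 2.12%, 1.78%, 1.37% and 4.58% of all genes were.

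Other genes of the Polycomb system were counted over fixed lists in VTA of males. These lists were drawn up with earlier results of these data known, and their counts stand beside 22% of all genes called, or 11% in each direction. Of 4 other accessory genes of PRC2, 2 rose, Aebp2 by 0.31 on the log2 scale (adjusted p = 0.0061) and Lcorl by 0.39 (0.026). Of 20 genes of PRC1, the complex that ubiquitinates H2A and reads the PRC2 mark, 13 were called, 8 lower and 5 higher, the latter being Rnf2, Bmi1, Pcgf3, Pcgf5 and Yaf2 (0.16 to 0.47). Ring1, an E3 ligase of PRC1, fell from 48.4 ± 2.2 to 31.5 ± 2.7 CPM (log2 fold change -0.58, adjusted p = 0.0022), Pcgf2 by -0.57 (0.0047) and Cbx7, a reader of the mark, by -0.35 (0.0034).

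Among 3 H3K27 demethylase genes, which remove the mark, Kdm6b fell from 50.8 ± 3.5 to 34.0 ± 4.7 CPM (-0.54, adjusted p = 0.0022) and Kdm6a rose (0.27, 0.033). Of 8 genes of the opposing COMPASS methylases, Rbbp5 rose (0.18) and 3 fell, namely Kmt2b (-0.50), Kmt2d (-0.48) and Wdr5 (-0.22). Of 14 partners of Rbbp4 and Rbbp7 outside PRC2, Hdac2 rose (0.19) and 3 fell, Sin3b (-0.31), Mbd3 (-0.37) and Mta1 (-0.34). None of 4 genes of the H2A deubiquitinase was called by edgeR, with 2 at an unadjusted p under 0.05, as were 6877 of all 19822 genes. DESeq2 called 1, Asxl1 (0.12), where it called 30.3% of all genes. With GC offsets, where 4.21% of all genes were called, the calls were 1 of 4 accessory genes (Lcor, -0.38), 2 of 20 in PRC1, 1 of 3 demethylases, 1 of 8 in COMPASS (Ash2l, -0.17), 1 of 14 partners (Mbd2, 0.42) and 1 of 4 for the deubiquitinase (Asxl1, 0.18). Ring1 (-0.32, adjusted p = 0.012), Pcgf2 (-0.41, 0.041) and Kdm6b (-0.19, 0.039) stayed called, and Cbx7, Aebp2, Lcorl, Kdm6a, Kmt2b, Kmt2d, Wdr5, Sin3b, Mbd3 and Mta1 did not. Under the offsets Mbd3 turned to 0.09, Phc2, a PRC1 gene among the 8 lower ones, from -0.25 to 0.14, Hdac2 to -0.01 and Pcgf3 to -0.01, none of them called, and with all VTA libraries kept Yaf2 turned from 0.21 to -0.03 (adjusted p = 0.9996). The 5 higher PRC1 genes, Phc2, Rbbp5, Hdac2, Asxl1, Lcor, Ash2l and Mbd2 are named after their values were seen.

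Leaving out 1 VTA library at a time gave 9 to 14 called PRC1 genes. Lcorl lost its call without male fentanyl 1 or male water 4 or 5, Kdm6a without male fentanyl 1, 2 or 3 or male water 4 or 5, and Wdr5 without male fentanyl 1 or male water 1, 4 or 5. Ring1, Pcgf2, Cbx7, Kdm6b, Kmt2b, Kmt2d, Sin3b, Mbd3, Mta1 and Aebp2 stayed called in all 19 fits. Averaged over the sexes in VTA, 14 of the 20 PRC1 genes were called, where 23.1% of all genes were, and 1 with GC offsets, where 4.84% were. In VBT, S1 and NAc no gene of these lists, Hox and Cdkn2 genes included, was called by edgeR, with all kept libraries and no offsets or covariates, for fentanyl in either sex or on average, with 2 to 12 of 54 or 55 genes at an unadjusted p under 0.05. DESeq2 called 3 in NAc of males, Kdm6b, Asxl1 and Kmt2c, where it called 5.8% of all genes, 2 in S1 of females, Lcor among them, and 0 in the other comparisons of these areas. In NAc of males, edgeR with GC offsets called 2, Kdm6b (-0.35, adjusted p = 0.048) and Asxl1 (-0.21, 0.039), where 1.87% of all genes were called, and with reads outside exons as a covariate Asxl1 alone. Leaving out 1 library at a time added calls in these areas only without male fentanyl 5. In NAc of males these were Kdm6b (-0.49), Asxl1 (-0.26) and Hdac2 (0.20), where 4.12% of all genes were called, and in S1 on average Ring1 (0.24, adjusted p = 0.027), where 2.55% were. In PrL edgeR called 1, Kmt2b on average (-0.18, adjusted p = 0.038), where 0.697% of all genes were called. That call was lost in 12 of 20 fits that left out 1 library, with length offsets, with no filter on low counts and with the covariate. On average in PrL, GC offsets gave 3 calls, Kmt2b, Kmt2d and Asxl3 (2.04% of all genes), and DESeq2 gave 5, the same 3 with Kmt2c and Cbx2 (4.16%), all lower after fentanyl. The genes called in NAc and S1 and by these alternatives in PrL are named after their values were seen.

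Classical silent targets of PRC2 stayed near 0. Of 41 Hox and Cdkn2 genes, none reached a mean of 1 CPM in any area, and 19 in VTA to 30 in PrL had no count in any library. Only 5 passed the filter in VTA, 2 in VBT and 1 in each other area. Hoxb3 and Hoxb2 were past the threshold in VTA on average by edgeR (adjusted p = 0.023 and 0.043) but with GC offsets had an adjusted p of 0.056 and 0.098. No VTA water library reached the level that the filter asks for, so both genes passed it through fentanyl libraries alone. Their test was thus not independent of the outcome, and the values are a description. Hoxb3 reached 5.63 CPM in female fentanyl 3 and 1.47 in male fentanyl 2, was 0.84 and 0.81 in female fentanyl 4 and 2, at most 0.31 in every other VTA library and at 0 in all 4 males exposed to water. Without male fentanyl 2 the adjusted p of Hoxb3 was 0.061, and Hoxb2 was not called in 9 of the 15 fits without 1 library that tested it.

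Between the sexes in water, none of the 10 genes was called in any area by edgeR or DESeq2. In VTA 2 had an unadjusted p under 0.05, Phf1 at 0.23 and Eed at -0.22 for male minus female (adjusted p = 0.45 each), and in the other areas none did. Of all 19822 genes tested in VTA, 2145 did. Of all genes, 0.0898% were called in VBT, 0.0557% in S1, 0.0513% in NAc, 0.0504% in VTA and 0.0472% in PrL. Rbbp7 lies on the X chromosome, and its male minus female change was between -0.10 and 0.04 over the 5 areas. The demethylase genes serve as a check. Uty, on the Y chromosome, averaged 19.5 to 24.0 CPM in males and 0.005 to 0.035 in females, and its X-linked homologue Kdm6a averaged 32.1 to 44.1 CPM in males and 47.3 to 57.3 in females. Kdm6a was called in VTA, VBT and S1 (adjusted p = 7.3e-04, 0.019 and 0.0026) and not in PrL (0.071) or NAc (0.067).

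The genes most like Phf1 over the 98 libraries, by Pearson's r of log2(CPM + 1) among 15551 genes with a mean of at least 1 CPM, were Carmil3 (r = 0.924), Magel2 (0.907), Vat1 (0.904), Hdac11 (0.903) and Inafm1 (0.903). These libraries share areas and treatments, and the exons of the 5 genes are GC-rich like those of Phf1, at 57.4% to 60.8%. On the same measure Rbbp4 had 0.52, Mtf2 -0.40 and Rbbp7 -0.56, and Cuta had 0.11. After removing the mean of each group, the most alike were Cpt1c (0.820), Lmtk3 (0.792), Ccar2 (0.771), Ehmt2 (0.765) and Carmil3 (0.760), with exon GC contents of 55.1% to 66.7%. On that measure Mtf2 had 0.07 and Ezh1 0.40.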

How the data were processed

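Per the labels' protocols, the tissue was lysed in Trizol, the RNA cleaned on columns with DNase, and 10 ng of it used for SMART-Seq v4, a kit that does not mark strand. The authors deposited raw HTSeq counts per Ensembl gene on GRCm38, per the submitters' processing notes. The aligner, annotation release and strand setting are not given in the sources used here. The 5 lines of reads not assigned to a gene were left out of totals. Reads outside exons made up 9.99% to 18.0% and ambiguous reads 1.50% to 2.23% of a library. Symbols, exons and GC contents came from GENCODE M21, which holds 55154 of the identifiers.

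Each area was fitted alone with edgeR 4.0.16 in R 4.3.3 (quasi-likelihood, robust, TMM, filterByExpr, 4 groups). GC and length offsets used a lowess trend per library (span 0.3). Shares used two-sided exact permutation tests. Python 3.11.15 with scipy 1.17.1 and pandas 2.3.3 served for the rest. The fits were tested on simulated data.

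The PRC2 genes and the lists were chosen with earlier results of these data known. Named were all 10 genes, at most 3 called genes per list and comparison (smallest p), Kdm6a and Uty, the neighbours of Phf1, and the 5 genes most like it. Alternatives were DESeq2 1.42.0, its size factors, no filter, a replicate block, GC and length offsets, reads outside exons as a covariate, all VTA libraries, and each library left out. Joint fits over all groups, GC offsets with each VTA library left out, PrL without 2 libraries, and lengths without shared exonic bases were chosen after seeing the data.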

Additional observations from a re-analysis of the deposited data

Results flagged for a closer look

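In 200 groups of 4 or 5 libraries (10 genes by 20 groups), the library farthest out was compared with Dixon's 95% critical value. Chance flags about 1 in 20 groups, or 10 here, and 14 were found. In PrL, 5 of them fell on female water 5 and male water 3, the libraries with 171 and 324 CPM of olfactory bulb markers. Ezh2 was 11.57 CPM in female water 5, with the others between 5.25 and 6.73, and 12.2 CPM in male water 3, with the others between 5.12 and 6.96. Jarid2 was 60.53 CPM in female water 5 (others 43.7 to 47.7) and 67.19 CPM in male water 3 (others 43.1 to 48.5). Rbbp4 was 137.4 CPM in male water 3, with the others between 114.6 and 119.1. In the same area Ezh2 was 4.405 CPM in male fentanyl 5, below 4.92 to 5.04 in the others.

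The remaining flags were spread over areas and genes. Phf1 was 33.74 CPM in S1 female fentanyl 2 (others 30.9 to 31.7). Phf19 was 1.388 CPM in VBT male fentanyl 5 (others 0.785 to 0.936) and 0.3848 CPM in S1 female water 5 (others 0.859 to 1.03), on few counts. Ezh2 was 9.377 CPM in VTA male fentanyl 2 (others 10.6 to 10.7). Rbbp4 was 160.1 CPM in VTA female fentanyl 4 (others 155.0 to 156.3) and 137.3 CPM in S1 male fentanyl 3 (others 130.1 to 132.2). Rbbp7 was 85.22 CPM in VTA female fentanyl 5 (others 95.65 to 97.0) and 129.9 CPM in S1 female fentanyl 1 (others 109.3 to 113.1).

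The male fentanyl effect in VTA minus that in another area was past the threshold for 3 genes in the joint edgeR fit. For Phf1 it was -0.6855 against VBT, -0.6555 against S1, -0.7026 against PrL and -0.5295 against NAc, and for Eed 0.442 and Rbbp7 0.2807 against VBT. With GC offsets in that fit the same differences were -0.33, -0.33, -0.37 and -0.23 for Phf1, 0.37 for Eed and 0.12 for Rbbp7, none past the threshold.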

How the results depend on the processing

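PRC2 genes called in VTA of males numbered 3. With GC offsets there was 1, with all VTA libraries kept 0, leaving out each library 1 to 3, and with both GC offsets and a library left out 0 to 1. Of all genes, 22% were called without these changes, 4.21% with GC offsets and 0.216% with all VTA libraries kept. On average over sexes in VTA the 2 became 0 with GC offsets, 4 with reads outside exons as a covariate, 0 with all VTA libraries kept, 2 to 3 leaving out a library, and 0 to 1 with GC offsets besides. Of all 19822 genes, 4580 were called without these changes, 960 with GC offsets and 5817 with the covariate. With all VTA libraries kept, 60 of 19443 were. In S1 of females the 1 became 2 by DESeq2, 0 with GC offsets, 0 with length offsets, 0 with the covariate and 0 to 1 leaving out a library. In the S1 average the 1 became 2 by DESeq2, 0 with the covariate and 0 to 2 leaving out a library. In the PrL average the 0 became 1 by DESeq2 and 1 with GC offsets. DESeq2 called 2.37% of all genes in S1 of females, 3.7% in the S1 average and 4.16% in the PrL average, where GC offsets called 2.04%. Between areas, females alone gave 5 in place of 10 for PrL and NAc, and S1 and PrL went from 6 to 2 in females alone and 1 in males alone. VBT and S1 went from 8 to 5 in males alone. VTA and S1 went from 7 to 4 with DESeq2 size factors, 3 in females alone and 4 in males alone. Fits in 1 sex alone hold fewer libraries. The shares of all genes called in these fits between areas are not given here, so the counts are no result about PRC2.

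For the 10 PRC2 genes, no called fentanyl value changed direction in the alternatives run. Between areas, the direction of Jarid2 in VBT and NAc depended on the scaling, as given above. Of the other genes named, 6 changed direction in VTA, none of them called after the change, and the cause was not tested. With GC offsets Mbd3 went from -0.37 to 0.0938 in males and from -0.25 to 0.0813 on average, Hdac2 from 0.19 to -0.01 and from 0.11 to -0.05, Phc2 from -0.25 to 0.14 and from -0.21 to 0.06, and Pcgf3 from 0.16 to -0.01 and from 0.10 to -0.02. With all VTA libraries kept Yaf2 went from 0.21 to -0.03 in males and Mbd2 from 0.15 to -0.03 on average. Whether replicate numbers pair the libraries is not settled. Over 48 pairs of fentanyl and water libraries of the same number, the correlation of deviations from the group means ran from -0.39 to 0.40. Its median was 0.049, with 13 pairs over 0.1. These pairs differ in exposure and cannot show whether libraries of different areas share an animal. Over 92 pairs of water libraries of the same sex and number in 2 areas it ran from -0.30 to 0.35, with a median of 0.067 and 35 pairs over 0.1. The labels do not say whether such libraries share an animal, and the fits over several areas held no animal term. With the replicate block, 3 PRC2 genes were called in VTA of males, 3 on average (Suz12 was added, 0.16, adjusted p = 0.017) and 1 in S1 of females. Of all 19822 genes in VTA, 3855 were called in males and 4195 on average in that fit, and 51 of 19748 in S1 of females. Counting depth limits Phf19, at a median of 35 reads.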
